A study of Mus musculus with 12 samples.

Results

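The mTORC1 and TSC pathway was followed through 10 genes, chosen by symbol for their roles in the pathway, with earlier results of these data known: the kinase gene Mtor, the complex subunits Rptor, Rictor and Deptor, the upstream regulators Tsc1, Tsc2, Rheb and Flcn, and the substrates Rps6kb1 and Eif4ebp1. Each symbol stood on 1 row of the count tables, which list 55401 genes, and all 10 passed the filter on low counts in both comparisons. Bulk RNA-seq was performed on tumor-associated macrophages (TAMs) sorted from subcutaneous tumors of B16-F10, a mouse melanoma cell line, with 3 libraries in each of 4 groups. The AMPK-KO group was labelled AMPKfl/fl with Lyz2cre/cre, in which Cre from the myeloid Lyz2 locus acts on a floxed AMPK gene. Its WT group was labelled AMPKfl/fl, with no Cre named in the titles. Both were taken at day 15 after implantation by the methods. A separate table held Early-stage TAMs of day 8 and Late-stage TAMs of day 15, both of WT genotype. The mice were female by the methods, had a C57BL/6 background, were 5 weeks old when used and received no treatment by label. The genotype field of AMPK-KO replicates 2 and 3 reads Lyz3cre and Lyz4cre while their titles read Lyz2cre/cre, and they were grouped by title. The gate given in the methods was CD45+CD11b+Ly6C-Ly6G-F4/80+, while supplementary figure legends, as read here, write Ly6C+Ly6G+ or Ly6G-Ly6C+. The labels do not say how many mice stood behind a library.

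mTORC1 is a protein kinase complex built around mTOR and Raptor (Rptor) that promotes protein, lipid and nucleotide synthesis and restrains autophagy. The TSC1-TSC2 complex keeps the small GTPase RHEB inactive, growth factor signalling through PI3K and AKT relieves that brake, and amino acids recruit mTORC1 to the lysosome through the Rag GTPases, where folliculin (Flcn) acts on RagC and RagD. AMPK, the energy-sensing kinase targeted here, is known to phosphorylate TSC2 and Raptor and so to lower mTORC1 activity at low energy. These steps act on proteins, and the counts measured here are transcripts, which give no reading of kinase activity.

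Total counts ranged from 71019494 to 84470374 per library, and the 10 genes had from 739 to 13046 counts in a library, with the lowest for Deptor. Prkaa1, which encodes the AMPK catalytic subunit α1, had 4959, 4535 and 5165 counts in the WT libraries and 3467, 3285 and 3297 in the AMPK-KO libraries, so the labels and the targeted gene went the same way. These counts cover the whole gene, including exons outside the floxed part. Lyz2 had 671 to 975 counts in WT and 676 to 1088 in AMPK-KO, against 88212 to 249165 in the Early-stage and Late-stage libraries, so that both groups of the first table stood low for the gene that carries the Cre insertion. Lyz2 therefore did not tell the libraries labelled WT from AMPK-KO, and whether they carried Cre was not tested. The 4 Y-linked genes measured had 3435 to 4035 counts together in each Early-stage library and 0 to 4 in each Late-stage library, so sex and stage cannot be told apart, whereas all WT and AMPK-KO libraries had 9229 to 12183. The methods name female mice, which the Y-linked counts of the Early-stage, WT and AMPK-KO libraries contradict. The reason was not tested. The macrophage markers were present as the label says, with all 8 genes above 1 CPM and a summed level of 8177 to 10150 CPM (counts over the library size after TMM scaling) in every library.

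Per kilobase of exon, the 10 genes kept 1 order of level in all 4 groups. The length used was that of all exons annotated for a gene, over all its transcripts, so the order depends on this divisor. Without it, Rptor lay above Mtor in WT, at 63.3 and 54.7 CPM. Which transcripts the cells used was not tested. Eif4ebp1, the translational repressor that mTORC1 phosphorylates, stood first at 59.7 ± 6.27 CPM per kb in WT (mean ± SD, n = 3) and 51.9 ± 4.62 in AMPK-KO. It was followed in WT by Flcn at 21.4 ± 0.349, Rheb at 12.2 ± 0.639, Tsc2 at 7.42 ± 0.716 and Mtor at 5.41 ± 0.496 CPM per kb. Rptor at 4.70 ± 0.209, Rps6kb1 at 3.58 ± 0.0214, Tsc1 at 2.81 ± 0.286, Rictor at 1.93 ± 0.142 and Deptor at 1.52 ± 0.333 CPM per kb came after them. Neighbours in this order did not overlap between libraries, except Mtor and Rptor, whose libraries overlapped in WT and in Early-stage. Tsc2 thus had a higher level per length than its partner Tsc1 in every library, and Rptor a higher one than Rictor, the subunit that defines mTORC2. Levels of the separate tables were set side by side without a test, and Flcn was the gene whose libraries lay apart between them, at 85.0 to 94.0 CPM in WT and AMPK-KO and 63.3 to 76.2 CPM in Early-stage and Late-stage.

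**Figure D1:**
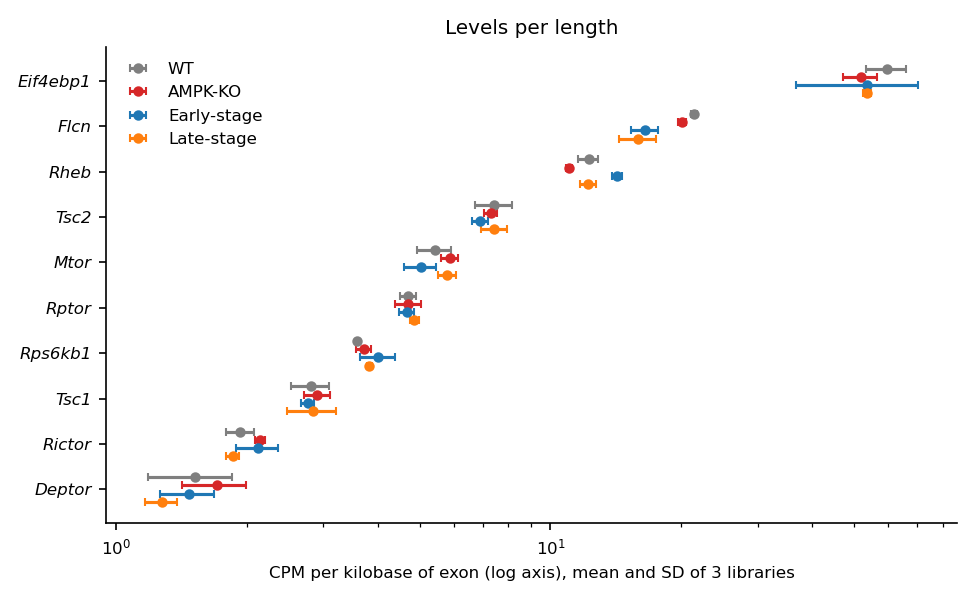
Mean CPM per kilobase of exon (log axis) of each gene, with bars for the SD of 3 libraries, in the WT, AMPK-KO, Early-stage and Late-stage groups. The order from Eif4ebp1 down to Deptor is the same in each group, and in WT it runs from 59.7 to 1.52 CPM per kb.

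The first comparison asked how the pathway's transcripts stood in TAMs of the AMPK-KO group against WT. None of the 10 genes passed the test (edgeR quasi-likelihood, adjusted p under 0.05), while 21.1% of the 17532 genes tested did. DESeq2 also called 0 of the 10, and 2 of them, Rheb and Eif4ebp1, had an unadjusted p under 0.05 in edgeR. Log2 fold changes ran from −0.20 to 0.17 with a median of 0.02, 5 above 0 and 5 below. The median size was 0.10 against 0.22 over all genes tested, which include genes of low counts and were not matched to the 10 for level. For 9 of the 10 genes the 95% interval lay within 0.5 log2 units of 0, from −0.39 to 0.31, which is 23.7% lower to 24.2% higher. Deptor was the exception, with an interval from −0.21 to 0.55. In bulk samples, fewer cells of a type and less RNA per cell cannot be told apart.

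Among the core subunits, Mtor was measured at 59.1, 49.2 and 55.8 CPM in WT and 61.0, 60.5 and 56.2 CPM in AMPK-KO. WT replicate 2 was the low library and the groups overlapped, with a log2 fold change of 0.12 (SE 0.07, edgeR adjusted p = 0.326). Rptor, which presents substrates to mTORC1 and is itself a known AMPK target as a protein, had 66.6, 61.9 and 61.5 CPM in WT and 65.8, 65.7 and 58.3 CPM in AMPK-KO. Its groups covered the same range, and the log2 fold change was −0.00 with an interval from −0.15 to 0.15. Rictor had 35.4, 31.1 and 31.5 CPM in WT and 35.3, 37.3 and 36.2 CPM in AMPK-KO, where WT replicate 1 reached the AMPK-KO values. Its log2 fold change was 0.15 (SE 0.07, edgeR adjusted p = 0.181). Deptor, a subunit of both complexes that restrains mTOR, had the fewest counts, at 16.03, 10.2 and 14.1 CPM in WT and 16.2, 16.9 and 12.2 CPM in AMPK-KO, and its groups overlapped widely.

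Among the upstream regulators, Tsc1, the subunit that stabilises TSC2, had 37.2, 31.4 and 31.2 CPM in WT and 37.1, 32.9 and 33.0 CPM in AMPK-KO. Tsc2, the subunit with GTPase-activating function toward RHEB, had 78.6, 64.9 and 70.6 CPM in WT and 71.7, 71.3 and 67.2 CPM in AMPK-KO. In both genes replicate 1 of WT was the highest library of its group and the groups overlapped, with log2 fold changes of 0.05 and −0.03 whose intervals ran from −0.15 to 0.24 and from −0.19 to 0.14. Rheb, the GTPase that activates mTORC1, had 89.3, 94.9 and 99.2 CPM in WT and 86.5, 85.7 and 83.6 CPM in AMPK-KO. All 3 AMPK-KO libraries lay below all 3 WT libraries, by a log2 fold change of −0.15 (SE 0.06, interval −0.27 to −0.02) that did not pass over all genes (edgeR adjusted p = 0.0899). Flcn had 91.1, 94.0 and 92.1 CPM in WT and 85.0, 86.9 and 88.8 CPM in AMPK-KO. Its groups did not overlap either, with a log2 fold change of −0.09 (SE 0.05, edgeR adjusted p = 0.251). Groups without overlap were thus seen in 2 of the 10 genes, against 37.2% of all genes tested.

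Among the substrates, Rps6kb1, which encodes S6 kinase 1, was the steadiest gene in WT at 30.8, 31.0 and 31.2 CPM, and it had 33.1, 32.8 and 30.6 CPM in AMPK-KO. Its log2 fold change was 0.05 with an interval from −0.09 to 0.20. Eif4ebp1 had 116.8, 144.3 and 132.1 CPM in WT and 105.1, 111.7 and 125.0 CPM in AMPK-KO, where WT replicate 1 fell among the AMPK-KO values. Its log2 fold change of −0.20 was the largest in size of the 10 genes (SE 0.09, interval −0.39 to −0.01), and it did not pass over all genes (edgeR adjusted p = 0.128). Without WT replicate 1, Eif4ebp1 and Rheb both passed, with edgeR adjusted p = 0.0260 and 0.0330, and log2 fold changes of −0.28 and −0.19.

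**Figure D2:**
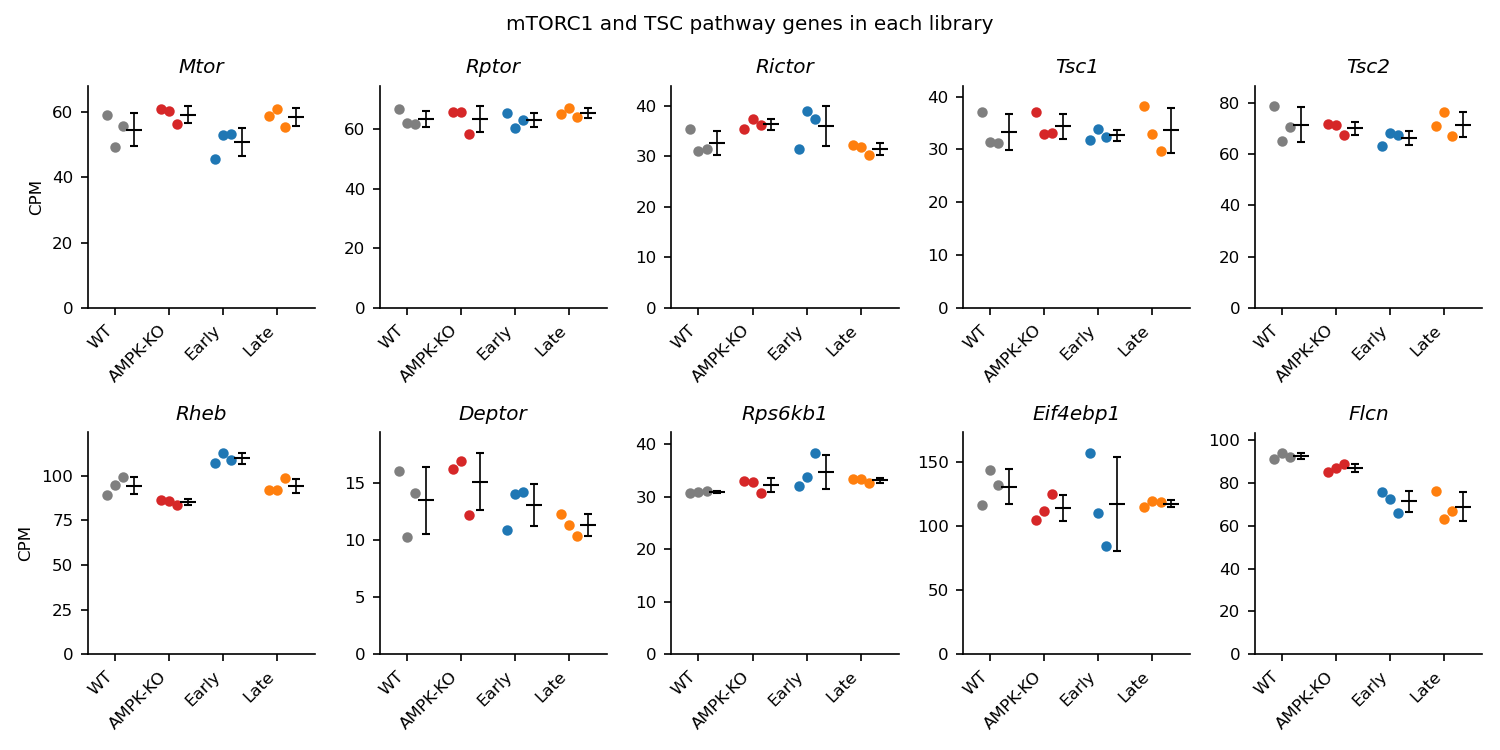
CPM of each of the 10 genes (one panel each, axis from 0) in the 3 libraries of WT, AMPK-KO, Early-stage (Early) and Late-stage (Late), with the mean and SD as a bar beside the points. Rheb is lower in every AMPK-KO library than in every WT library and lower in every Late-stage library than in every Early-stage library, and Eif4ebp1 spreads from 84.8 to 157.6 CPM within Early-stage.

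The second comparison asked how the same transcripts stood in Late-stage against Early-stage tumors. Again none of the 10 genes passed (edgeR quasi-likelihood, adjusted p under 0.05), while 9.18% of the 17630 genes tested did. DESeq2 called 0 of them as well, and Rheb and Mtor had an unadjusted p under 0.05 in edgeR. The log2 fold changes ran from −0.22 to 0.20 with a median of −0.02. Their median size was 0.09 against 0.23 over all genes tested, again not matched for level. The 95% interval lay within 0.5 log2 units of 0 for 9 genes, between −0.42 and 0.40, and again all but Deptor.

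Mtor had 45.8, 53.1 and 53.4 CPM in Early-stage and 58.9, 61.0 and 55.5 CPM in Late-stage. Every Late-stage library was above every Early-stage library, with a log2 fold change of 0.20 (SE 0.09, interval 0.01 to 0.40, edgeR adjusted p = 0.187). Rheb had 107.2, 112.9 and 108.9 CPM in Early-stage and 92.1, 91.9 and 98.8 CPM in Late-stage, again with no overlap, so that the kinase gene and the gene of its activator lay in opposite directions. The log2 fold change of Rheb was −0.22 (SE 0.07, interval −0.37 to −0.06, edgeR adjusted p = 0.0846), and it passed without Early-stage replicate 1, at edgeR adjusted p = 0.0449 and a log2 fold change of −0.23. These were the 2 genes of the 10 whose groups did not overlap, against 31.2% of all genes tested.

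The other subunits overlapped between the stages. Rptor had 65.4, 60.4 and 63.1 CPM in Early-stage and 65.1, 67.2 and 64.0 CPM in Late-stage, a log2 fold change of 0.05 with an interval from −0.11 to 0.22. Rictor had 31.4, 39.0 and 37.3 CPM in Early-stage and 32.3, 31.8 and 30.2 CPM in Late-stage, where Early-stage replicate 1 fell among the Late-stage values, and its log2 fold change was −0.19 (SE 0.10, edgeR adjusted p = 0.282). Deptor showed the same arrangement, with Early-stage replicate 1 low at 10.9 CPM beside 14.0 and 14.2 CPM, and 12.2, 11.3 and 10.3 CPM in Late-stage. Its log2 fold change was −0.21 with an interval from −0.51 to 0.10.

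Neither TSC gene passed the test. Tsc1 had 31.8, 33.9 and 32.3 CPM in Early-stage and 38.2, 33.0 and 29.7 CPM in Late-stage, so the Late-stage libraries lay on both sides of the Early-stage ones. Tsc2 had 63.1, 68.1 and 67.6 CPM in Early-stage and 70.8, 76.6 and 66.8 CPM in Late-stage, a log2 fold change of 0.11 with an interval from −0.07 to 0.29. Flcn had 75.8, 72.3 and 65.8 CPM in Early-stage and 76.2, 63.3 and 66.9 CPM in Late-stage, with both groups covering about the same range.

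For the substrates, Rps6kb1 had 32.1, 33.7 and 38.4 CPM in Early-stage and 33.4, 33.3 and 32.7 CPM in Late-stage, a log2 fold change of −0.07 with an interval from −0.28 to 0.14. Eif4ebp1 was the most variable gene of the 10 in Early-stage, at 157.6, 110.4 and 84.8 CPM, and among the steadiest in Late-stage, at 114.9, 119.5 and 118.9 CPM. The Early-stage libraries lay on both sides of the Late-stage ones, and the log2 fold change was 0.00 with an interval from −0.40 to 0.40. Its coefficient of variation in Early-stage, 31.4%, was the highest of any of the 10 genes in any group.

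**Figure D3:**
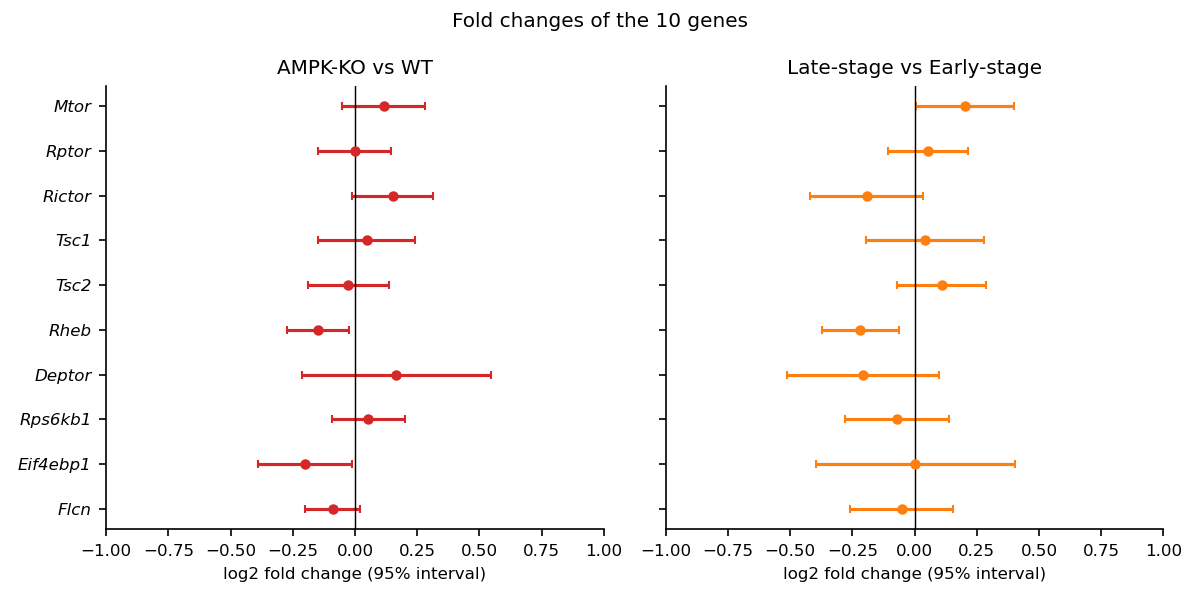
Log2 fold change of each gene with its 95% interval, AMPK-KO against WT on the left and Late-stage against Early-stage on the right. The intervals exclude 0 for Rheb and Eif4ebp1 on the left and for Rheb and Mtor on the right, and none of the 10 genes passed after adjustment over all genes tested.

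Ratios of counts within a library do not depend on the scaling, and 3 were formed between the 10 genes. The ratio of Rptor to Rictor, the subunits that set mTORC1 apart from mTORC2, was 1.88, 1.99 and 1.95 in WT and 1.86, 1.76 and 1.61 in AMPK-KO, so every AMPK-KO library was below every WT library. The difference was −0.16 on the log2 scale (two-sided exact permutation p = 0.1, the smallest that 3 against 3 can give), and it ranged from −0.21 without AMPK-KO replicate 1 to −0.10 without AMPK-KO replicate 3. In the stages it was 2.08, 1.55 and 1.69 in Early-stage and 2.01, 2.11 and 2.12 in Late-stage, with overlap and a difference of 0.24 (exact permutation p = 0.2). The ratio of Tsc1 to Tsc2 differed by 0.07 in AMPK-KO (exact permutation p = 0.4) and by −0.07 in Late-stage (exact permutation p = 0.5). It ranged from 0.03 without AMPK-KO replicate 1 to 0.11 without AMPK-KO replicate 2, and from −0.17 without Late-stage replicate 1 to −0.01 without Late-stage replicate 2. The ratio of Eif4ebp1 to Rps6kb1 differed by −0.25 in AMPK-KO (exact permutation p = 0.2) and by 0.11 in Late-stage (exact permutation p = 0.7). It was −0.17 in Late-stage without Early-stage replicate 3.

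The ratio of Eif4ebp1 to Rps6kb1 moved with gene length in the libraries, an observation made after the values were seen. Eif4ebp1 has the shortest exon length of the 10 genes, 2196 bases, and Rps6kb1 has 8658. Among genes with a mean of at least 10 CPM, the shortest by exon length, up to 3447 bases in the first table and 3429 in the second, were set against the longest, from 6007 and 6025 bases, as the difference of their median log2 deviations from the group mean. In Early-stage this difference was 0.18, −0.02 and −0.15 in replicates 1, 2 and 3, and the ratio of Eif4ebp1 to Rps6kb1 was 4.90, 3.28 and 2.21. In Late-stage the differences were −0.04, 0.02 and 0.02 beside ratios of 3.44, 3.58 and 3.64. The order of the ratio matched the order of the length difference in 4 of 4 groups. Between AMPK-KO and WT the median log2 fold change was −0.09 in the short genes and 0.06 in the long genes, while between the stages it was 0.01 and 0.00. The part of gene length in the values of Eif4ebp1, and of the long genes Mtor and Rictor, was not tested.

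**Figure D4:**
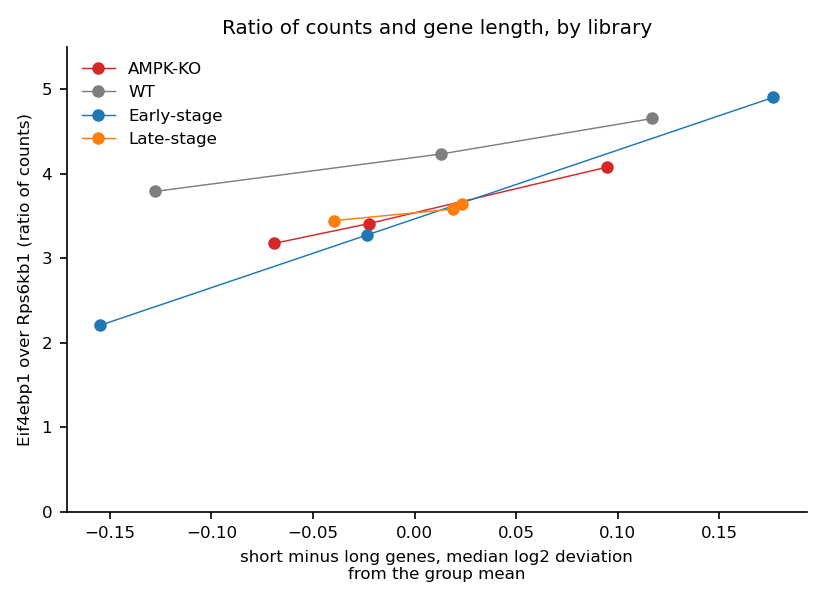
Ratio of Eif4ebp1 to Rps6kb1 counts in each library (vertical axis, from 0) against the short-minus-long difference of that library from its group mean (horizontal axis, log2), with lines joining the 3 libraries of a group. The ratio rises with the difference within each of the 4 groups, from 2.21 to 4.90 in Early-stage.

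Over all 12 libraries, after centring log2 CPM within each table, the pair of genes with the highest Pearson r was Mtor and Tsc2, at 0.81, and the pair with the lowest was Rps6kb1 and Eif4ebp1, at −0.85. Rictor and Deptor had 0.74. These are descriptions over 12 libraries that share the group differences and the length differences given above.

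The positions of the 10 genes are given on GRCm38 from GENCODE M21, where the identifiers of these 10 genes matched the tables with their version. Mtor (ENSMUSG00000028991.15) lies on chromosome 4 from 148448611 to 148557683, Rheb (ENSMUSG00000028945.9) on chromosome 5 from 24802823 to 24842624, and Tsc1 (ENSMUSG00000026812.16) on chromosome 2 from 28641228 to 28691167. Tsc2 (ENSMUSG00000002496.10) lies on chromosome 17 from 24595816 to 24632630 and Eif4ebp1 (ENSMUSG00000031490.6) on chromosome 8 from 27260329 to 27276674. Chromosome 11 carries Flcn (ENSMUSG00000032633.12) from 59791408 to 59810016, Rps6kb1 (ENSMUSG00000020516.15) from 86498871 to 86544805 and Rptor (ENSMUSG00000025583.15) from 119602905 to 119899576. Chromosome 15 carries Rictor (ENSMUSG00000050310.9) from 6708379 to 6800401 and Deptor (ENSMUSG00000022419.16) from 55112317 to 55259271.

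Promoter sequences from RefSeq (GRCm38.p6, 300 bases around the start of a gene) were at hand for 8 of the 10 genes, without Deptor and Eif4ebp1. Both strands were searched for the E-box CACGTG, which 7.15% of 32851 promoters of this length hold, the cAMP response element TGACGTCA, which 1.79% hold, and the ATF4 element TGATGNAA, which 3.97% hold. Rheb held an E-box 96 bases before its RefSeq start and Flcn a cAMP response element 49 bases before its RefSeq start, and these letters were not found in the windows of Mtor, Rptor, Rictor, Tsc1, Tsc2 and Rps6kb1. The stretches are shown because Rheb and Flcn were the 2 genes without overlap between AMPK-KO and WT. Neither was called there, and groups without overlap were seen in 37.2% of all genes tested. Of the 2 genes without overlap between the stages, Rheb held a match and Mtor did not. A link between a match and a change was not tested. The stretches lie at chr5:24842440-24842469 (minus strand) for Rheb and chr11:59810070-59810099 (minus strand) for Flcn. The RefSeq start of Rheb, at 24842361, is 263 bases inside the GENCODE gene given above, so the Rheb stretch lies within that gene, while the Flcn stretch lies outside its own. They read, 5′ to 3′ and with the match in capitals:
Rheb: gccgcgcgcggtCACGTGggtgtgttgttg
Flcn: aatgtcagtttTGACGTCAcccctgcagaa
A match is a run of letters and no measurement of binding.

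The surrounding pathway was followed through 109 other genes in 8 lists by role, chosen with earlier results of these data known. All 109 genes passed the filter on low counts. In AMPK-KO, 43 of them passed (edgeR, adjusted p under 0.05), 16 higher and 27 lower, with a median log2 fold change of −0.01. Over all genes tested, 11.3% were called higher and 9.78% lower. The lists with the highest shares called were ATF4 with its targets, 9 of 12, and the TFEB family with its lysosomal targets, 9 of 13. The count was 26 without WT replicate 3 and 26 without AMPK-KO replicate 2.

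Of 8 partner subunits, 1 was higher and 1 lower. Prr5l, which binds mTORC2, rose from 29.9, 28.7 and 27.4 CPM in WT to 46.9, 53.7 and 48.3 CPM in AMPK-KO, a log2 fold change of 0.79 (SE 0.07, edgeR adjusted p = 3.4e-05). Akt1s1, which encodes the mTORC1 inhibitor PRAS40, fell from 33.1 ± 0.662 to 27.1 ± 1.25 CPM (SD, n = 3), a log2 fold change of −0.29, and it was not called without WT replicate 3 or AMPK-KO replicate 2.

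Of 12 Rag GTPase, Ragulator and folliculin partner genes, 0 were higher and 5 lower, with a list median of −0.16. Rraga, which encodes RagA, fell from 82.5, 83.5 and 84.9 CPM to 62.6, 65.2 and 64.0 CPM (log2 fold change −0.39, SE 0.05, edgeR adjusted p = 3.9e-04). Fnip2, a partner of folliculin, fell from 179 ± 9.34 to 143 ± 7.18 CPM (log2 fold change −0.32). The other 3, named after their values were seen, were Rragd at −0.94, Lamtor3 at −0.26 and Rragc at −0.22 on the log2 scale. Flcn itself, at −0.09, was not called.

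Of 16 GATOR, KICSTOR and amino acid sensor genes, 1 was higher and 1 lower. Sesn2, a leucine sensor and stress gene that is also on the ATF4 list, had a log2 fold change of 0.26, and Sec13, a GATOR2 subunit that also serves in vesicle coats, −0.25. Neither was called without WT replicate 2 or 3 or without any one of the AMPK-KO libraries. Of 16 PI3K, AKT and stress input genes, 5 were higher and 0 lower, with a median of 0.19. Pik3cd, the leukocyte PI3K catalytic subunit, rose from 265, 248 and 258 CPM to 318, 328 and 332 CPM (log2 fold change 0.34, SE 0.05, edgeR adjusted p = 4.0e-04). Pik3cg, Pik3r1 and Irs2, named after their values were seen, had log2 fold changes of 0.28, 0.22 and 0.29. The count of 5 was 3 without WT replicate 2, 2 without WT replicate 3, AMPK-KO replicate 1 or AMPK-KO replicate 2, and 8 without AMPK-KO replicate 3.

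Of 18 substrates and translation factors, 3 were higher and 5 lower. Eif4e, the cap-binding protein that 4E-BP1 blocks, fell from 173, 168 and 164 CPM to 128, 127 and 131 CPM (log2 fold change −0.39, SE 0.05, edgeR adjusted p = 2.6e-04). Sgk1, an mTORC2 substrate, fell from 111 ± 2.82 to 83.5 ± 2.81 CPM (log2 fold change −0.41), while Ndrg1, a known SGK1 target as a protein, rose by 0.23. Rps6kb2, the paralog of Rps6kb1, rose from 26.5 ± 2.69 to 34.0 ± 2.68 CPM (log2 fold change 0.36), and was not called without WT replicate 3 or AMPK-KO replicate 3. The count of 8 was 5 without WT replicate 3, AMPK-KO replicate 2 or AMPK-KO replicate 3.

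Of 13 genes of the TFEB family and its lysosomal targets, 1 was higher and 8 lower, with a median of −0.19. mTORC1 is known to hold TFEB in the cytoplasm, and folliculin is needed for that step. Ctsd, the lysosomal protease cathepsin D, fell from 4772, 5126 and 4914 CPM to 2743, 2755 and 2893 CPM (log2 fold change −0.82, SE 0.04, edgeR adjusted p = 4.9e-07). Gpnmb fell from 438, 436 and 421 CPM to 250, 253 and 248 CPM (log2 fold change −0.78, SE 0.04, edgeR adjusted p = 9.6e-07). Uvrag, at 0.21, was the higher gene and was not called without WT replicate 2 or 3 or AMPK-KO replicate 1 or 2.

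Of the 12 genes of the ATF4 list, targets known to respond to mTORC1 and Atf4 itself, 2 were higher and 7 lower, with a median of −0.19. Atf4, at −0.09, was not called. Asns, which encodes asparagine synthetase, fell from 9.51, 11.3 and 11.9 CPM to 4.73, 5.48 and 5.55 CPM (log2 fold change −1.05, SE 0.13, edgeR adjusted p = 2.4e-04). Phgdh, the entry enzyme of serine synthesis, fell from 33.4 ± 2.82 to 23.5 ± 0.382 CPM (log2 fold change −0.51). Slc7a11, the cystine transporter, lay in the opposite direction, rising from 20.2, 16.7 and 16.5 CPM to 26.96, 26.4 and 23.1 CPM (log2 fold change 0.52, SE 0.10, edgeR adjusted p = 5.6e-03). The count of 9 was 5 without WT replicate 3 and 5 without AMPK-KO replicate 2. Of 15 sterol, lipid and glycolysis genes, 4 were higher and 0 lower, among them Hif1a at 0.40 on the log2 scale.

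Markers of other cells moved with AMPK-KO as well. The 6 melanoma cell markers were all lower, with a summed level of 919 to 926 CPM in WT and 615 to 645 CPM in AMPK-KO and none below 1 CPM, and Gpnmb and Mitf are also genes of the melanocyte lineage. The 3 monocyte markers were all higher (412 to 456 CPM in WT, 739 to 769 CPM in AMPK-KO), as were 5 of 6 T cell markers (76.5 to 91.5 and 148 to 156 CPM) and all 4 fibroblast markers (432 to 475 and 568 to 625 CPM). All 4 NK cell markers were higher (9.40 to 11.96 and 22.4 to 24.1 CPM), as were 3 of 5 neutrophil markers (95.1 to 102 and 158 to 161 CPM, with Cxcr2 and Retnlg below 1 CPM) and 4 of 5 dendritic cell markers (29.2 to 34.3 and 48.3 to 55.8 CPM, with Siglech below 1 CPM). The neutrophil sum was mostly Csf3r, at 96.5 ± 3.19 CPM in WT and 154 ± 1.40 CPM in AMPK-KO. Of 4 B cell markers, 1 was higher and 3 lower (27.7 to 29.1 and 19.9 to 21.98 CPM), and of 3 endothelial markers 1 was called in each direction (13.7 to 18.4 and 26.3 to 27.99 CPM, with Tek below 1 CPM). Macrophage markers summed to 9905 to 10123 CPM in WT and 9861 to 10150 CPM in AMPK-KO, with 3 of 8 called higher and 2 lower. This flat sum covers moves in opposite directions. Ptprc, Itgam and Csf1r were higher, at 0.68, 0.55 and 0.14 on the log2 scale, and Cd68 and Mrc1 lower, at −0.55 and −0.51. The part of these cells in the values of the pathway genes was not tested.

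**Figure D5:**
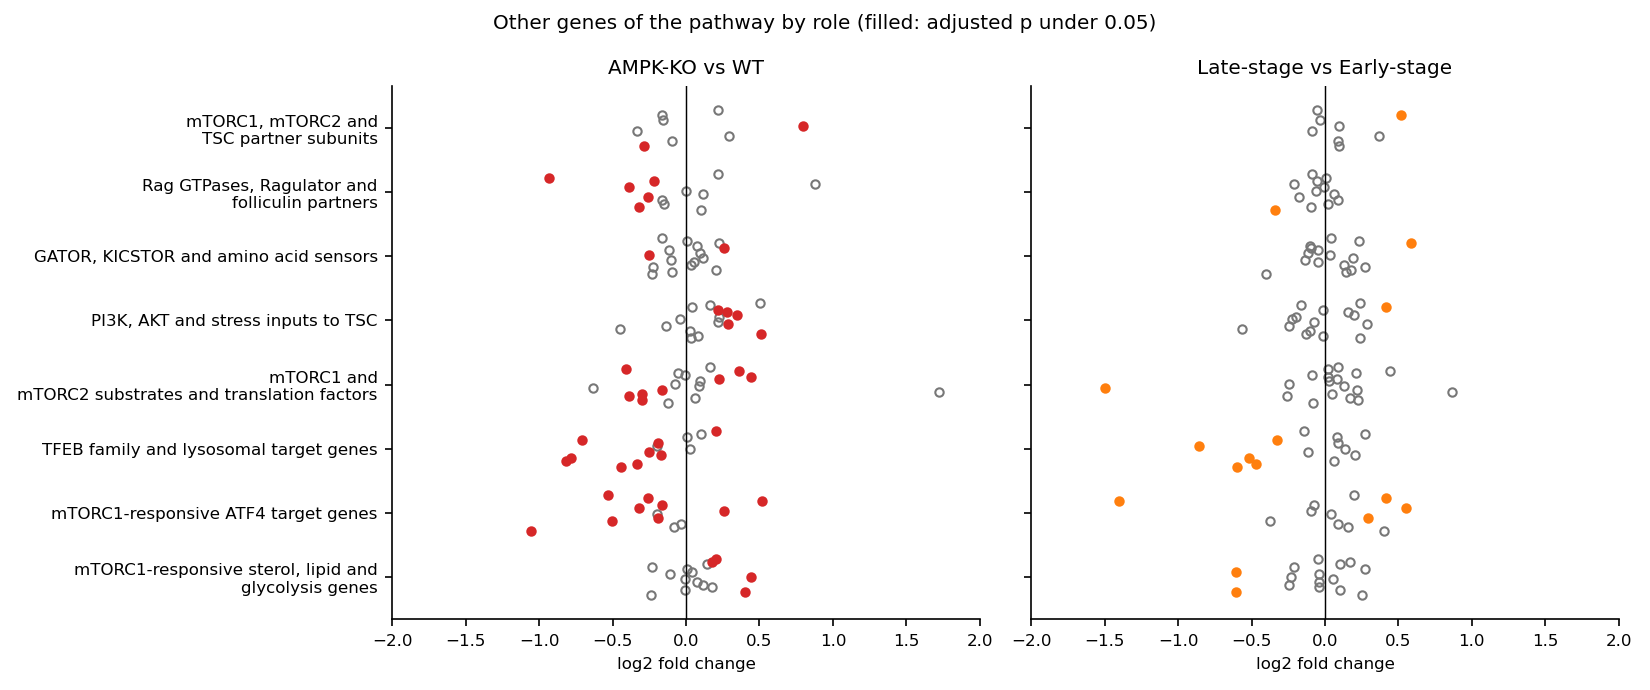
Log2 fold change of each of the 109 other pathway genes by list, AMPK-KO against WT on the left and Late-stage against Early-stage on the right, with filled points for genes at adjusted p under 0.05 and open points for the rest. On the left 43 genes are filled, 8 of them lower in the TFEB list and 7 lower in the ATF4 list, and on the right 16 are filled.

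Between the stages, 16 of the 109 genes passed (edgeR, adjusted p under 0.05), 6 higher and 10 lower, with a median log2 fold change of 0.02. Over all genes tested, 4.31% were called higher and 4.88% lower. This count moved with single libraries, to 32 without Early-stage replicate 1, 6 without Early-stage replicate 2, 8 without Late-stage replicate 1, 6 without Late-stage replicate 2 and 9 without Late-stage replicate 3.

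Of the 109 genes, 9 (8.26%) were called in both comparisons, which share no libraries, as were 4.89% of the 16812 genes tested in both. Gpnmb, Sqstm1, Atp6v0d2 and Atp6v1h were lower in both, Slc7a11 and Hif1a were higher in AMPK-KO and lower in Late-stage, and Psat1, Shmt2 and Slc7a5 were lower in AMPK-KO and higher in Late-stage. Slc7a11 fell from 18.4, 24.3 and 25.0 CPM in Early-stage to 9.77, 7.89 and 8.03 CPM in Late-stage, a log2 fold change of −1.40 (SE 0.15, edgeR adjusted p = 4.6e-04). Hif1a, a transcription factor whose translation mTORC1 promotes, fell from 277 ± 44.5 to 182 ± 6.86 CPM (log2 fold change −0.61). The difference between the comparisons was not tested, as they were never fitted together. The other ATF4 targets that passed were higher, namely Shmt2 at 0.55, Slc7a5 at 0.42 and Psat1, named after its values were seen, at 0.29 on the log2 scale. Of the 12 genes of that list, 3 were thus higher and 1 lower, and the count of 4 was 1 without Early-stage replicate 2, Late-stage replicate 2 or Late-stage replicate 3.

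Of the 13 TFEB family and lysosomal genes, 5 were lower and 0 higher in Late-stage. Mitf, a TFEB family member, fell from 107, 126 and 140 CPM to 65.5, 71.2 and 69.6 CPM (log2 fold change −0.86, SE 0.10, edgeR adjusted p = 7.4e-04). Atp6v1h, a subunit of the proton pump that acidifies lysosomes, fell from 133, 145 and 169 CPM to 103, 107 and 112 CPM (log2 fold change −0.47), and was not called without Early-stage replicate 2 or any one of the Late-stage libraries. The other 3, named after their values were seen, were Atp6v0d2 at −0.60, Gpnmb at −0.52 and Sqstm1 at −0.33. The count of 5 was 1 without Early-stage replicate 2, 2 without Late-stage replicate 1 or 2, and 3 without Late-stage replicate 3.

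In the remaining lists, Telo2, a chaperone partner for mTOR assembly, had a log2 fold change of 0.52 in Late-stage, and Pik3r5, a regulatory subunit of PI3K, 0.42. Fnip1, a partner of folliculin, had −0.34, Scd2, a fatty acid desaturase, −0.61, and Grb10, an adaptor that mTORC1 phosphorylates, −1.50, from 1.41, 1.94 and 2.80 CPM to 0.607, 0.550 and 1.02 CPM. Pik3r5, Scd2 and Hif1a stayed called whichever library was left out. Telo2 was not called without any one of the Late-stage libraries, Grb10 without Early-stage replicate 2 or 3 or Late-stage replicate 1 or 2, and Fnip1 without any library other than Early-stage replicate 1. The PI3K, substrate and sterol lists, with 1, 1 and 2 genes called, had 6, 7 and 6 without Early-stage replicate 1, and the PI3K list had 2 without Early-stage replicate 3.

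Markers of other cells moved with the stage too. Of the melanoma markers, 4 of 6 were called lower, from 1546 to 1667 CPM in Early-stage to 701 to 1133 CPM in Late-stage, with none below 1 CPM. All 3 monocyte markers were lower (462 to 534 and 169 to 202 CPM), as were 2 of 4 fibroblast markers (608 to 681 and 297 to 418 CPM) and 2 of 4 NK cell markers (24.4 to 33.9 and 12.9 to 16.6 CPM), while 2 of 4 B cell markers (33.6 to 36.9 and 52.0 to 74.0 CPM) and 2 of 6 T cell markers (128 to 136 and 157 to 188 CPM) were higher. Of 5 neutrophil markers, 2 were lower (73.8 to 87.0 and 64.3 to 79.4 CPM, with S100a9, Cxcr2 and Retnlg below 1 CPM), as was 1 of 3 endothelial markers (28.4 to 34.2 and 20.8 to 23.5 CPM), and 0 of 5 dendritic cell markers were called (34.998 to 41.2 and 35.8 to 38.1 CPM). The neutrophil sum was mostly Csf3r, at 76.9 ± 7.22 CPM in Early-stage and 69.7 ± 8.15 CPM in Late-stage, which was not called. The called genes had low levels, with S100a8 at 2.28 and 0.331 CPM and S100a9 at 0.722 and 0.143 CPM. Macrophage markers summed to 8177 to 8640 CPM in Early-stage and 8737 to 8784 CPM in Late-stage, with 1 of 8 called in each direction. C1qa was higher, at 0.49 on the log2 scale, and Mrc1 lower, at −0.62. The part of these cells in the pathway values was not tested.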

How the data were processed

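The authors deposited raw counts of reads per gene, 1 table for WT and AMPK-KO and 1 for Early-stage and Late-stage, after HISAT2 mapping and featureCounts. The submitters' processing notes name GRCm38, the methods write GRCh38, and tool versions, strand setting and the treatment of shared reads are not given in the sources used here, so genes with close copies are less certain. Total counts per library were 71019494 to 84470374. Each table was filtered (filterByExpr), scaled (TMM) and fitted on its own in edgeR 4.0.16 (glmQLFit and glmQLFTest, R 4.3.3), without covariates. P-values were adjusted by Benjamini-Hochberg over all genes tested, and a gene was called at an adjusted p under 0.05. Intervals are 95%. Ratios used raw counts with 0.5 added and a two-sided exact permutation test. CPM per kb used the merged length of all exons annotated for a gene in GENCODE M21, over all its transcripts. The pipeline was tested on simulated data.

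Results were recomputed with DESeq2 1.42.0, with upper-quartile or RLE scaling, with a filter of 10 counts per library or of 1 count in all, with a block for replicate number, and leaving out single libraries in turn. The 10 genes, the 8 lists and the markers were chosen with earlier results of these data known. All 10 genes are named, and from each list at most the 2 higher and 2 lower genes with the smallest adjusted p. Some genes that this rule covers are not reported here. A rule naming the genes most like a called member gave none, as no member was called. Replicates were distinct samples by label, but nothing says that they came from separate mice, so p-values measure only the spread between these samples.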

Additional observations from a re-analysis of the deposited data

How the results depend on the processing

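None of the 10 genes was called under RLE or upper-quartile factors, DESeq2, either other filter, or, apart from the cases here, without a library. Members called ranged from 0 to 2 in AMPK-KO (2 without WT replicate 1) and from 0 to 1 in Late-stage (1 without Early-stage replicate 1). Genes called ranged from 2414 to 4039 and pathway genes from 26 to 44 in AMPK-KO, and from 653 to 2835 and from 6 to 32 in Late-stage, when a library was left out. In Late-stage, DESeq2 called 2447 genes, and no filter beyond 1 count gave 936 genes and 8 pathway genes. Upper-quartile scaling shifted the median log2 fold change over all genes by −0.0138 in AMPK-KO and −0.0143 in Late-stage, and RLE by less.

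Signs turned for values near 0. Leaving out single libraries, the log2 fold changes in AMPK-KO ranged from −0.031 to 0.054 for Rptor (above 0 without WT replicate 1 or AMPK-KO replicate 3), from −0.090 to 0.046 for Tsc2 (above 0 without the same libraries) and from −0.013 to 0.13 for Tsc1 (below 0 without WT replicate 3 or AMPK-KO replicate 1). In Late-stage they ranged from −0.060 to 0.12 for Tsc1 (below 0 without Late-stage replicate 1), from −0.12 to 0.0081 for Rps6kb1 (above 0 without Early-stage replicate 3), from −0.13 to 0.0052 for Flcn (above 0 without Late-stage replicate 2) and from −0.19 to 0.27 for Eif4ebp1 (below 0 without Early-stage replicate 2 or 3 or Late-stage replicate 2 or 3). With upper-quartile factors Eif4ebp1 was −0.0117 in Late-stage. Other values kept their sign but moved. In AMPK-KO, Mtor ranged from 0.046 (without WT replicate 2) to 0.17 (without WT replicate 1), Deptor from 0.0039 to 0.31, Rps6kb1 from 0.033 to 0.087 and Eif4ebp1 from −0.28 to −0.13. In Late-stage, Rptor ranged from 0.023 to 0.085, Tsc2 from 0.055 to 0.15, Rictor from −0.28 to −0.13, Deptor from −0.32 to −0.14 and the log2 ratio of Rptor to Rictor from 0.15 to 0.36. The log2 ratio of Eif4ebp1 to Rps6kb1 in Late-stage ranged from −0.17 (without Early-stage replicate 3, the only value below 0) to 0.40. The cause was not tested.

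After centring within groups, same-numbered libraries had correlations of −0.0039 to 0.0423 in AMPK-KO and 0.0132 to 0.0255 in Late-stage. Libraries of different numbers had −0.0481 to 0.0472 and −0.0611 to 0.0413, so no pairing by replicate number was seen. Whether libraries shared a preparation was not tested. With the replicate block 1 member was called in AMPK-KO, Eif4ebp1 (adjusted p = 0.0485).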
